A study of Mus musculus with 36 samples.

Results

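Genomic bins of 20 kb that replicated in the middle of S phase in both B cell maps and early in the map of mouse embryonic fibroblasts (MEFs) are described here. A bin was a member when its deposited state was M (middle) in shLacZ CH12 cells and in WT primary B cells and E (early) in WT MEFs. Bins made only of unknown bases were dropped, only autosomes were used, and adjacent members were joined into runs. The rule gave 6649 members of 119839 autosomal bins, or 5.55%, in 601 runs. These bins were chosen by the states of the 3 maps, so their timing is a description and was not tested.

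Replication timing (RT) is the order in which stretches of the genome are copied during S phase. Origins in open, transcribed chromatin tend to fire early, while compact and gene-poor chromatin tends to be copied late. Much of the program is shared between cell types, and the stretches that shift between them often hold genes of one lineage. RIF1, the protein the study was about, is described in the paper as suppressing late origins in other cells through protein phosphatase 1. In activated B cells the paper reports instead that RIF1 promotes early replication. It states that the mechanism there is not yet known and is unlikely to be the canonical dephosphorylation of MCM4. The role of RIF1 was not tested here.

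The assay was Repli-seq. Cycling cells take up BrdU, are sorted by DNA content into an early and a late fraction of S phase, and their BrdU-labelled DNA is sequenced. CH12 is a mouse B lymphoma line. The CH12 cells of this map carried intact *Rif1*, were infected with a lentivirus expressing an shRNA against LacZ as the infection control, and were grown with IL4, CD40 and TGF beta stimulation. The WT primary B cells were activated splenic B cells, for which the deposited growth description repeats that of CH12. Each B map rests on 4 libraries, from 2 replicates of each fraction. The methods describe duplicate sorts of a sample as technical replicates and, elsewhere, sequencing replicates as separately thawed vials of CH12 cells, so which kind these are is not settled. They were merged before states were called. The labels tie the MEF map to no sample, and the study credits MEF timing data to an earlier data set. There was thus 1 map per condition, no replicate error for any value and no test between conditions. The maps do not show the depth behind a state. Wilson 95% intervals below cover counting error over bins or edges alone, since neighbouring bins depend on each other. The other 5 groups of the series, with RIF1 or MCM6 loss, were not analysed here.

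The state numbers of the 3 maps were checked against sequence and genes. Mean GC content was 45.8% in E, 42.9% in M and 39.5% in L (late) bins of CH12 cells, 45.3, 42.4 and 39.0% in primary B cells, and 45.3, 41.6 and 38.4% in MEFs. E and L domains touched in 0 places in each map. B cell identity genes began in E bins for 55 of 56 genes in the primary B map and 46 of 56 in CH12, and 36 of 56 in MEFs. Matrix genes of fibroblasts began in E bins for 39 of 53 genes in MEFs, 22 in primary B cells and 17 in CH12. Over all 21281 autosomal protein-coding genes, 13013 began in E bins in MEFs, 12603 in primary B cells and 11030 in CH12, so the MEF share of the B cell list was near that of all genes. The list of mesenchymal transcription factors was below it, with 28 of 54 in E bins in MEFs. A timing map holds no expression, so these counts describe the maps and not the purity of the cells.

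The promoters below belong to the 5 matrix or growth factor genes that start in the longest runs holding such genes, and to *Dock2*, the B cell list gene that starts in a member bin. They are shown because these starts are the points by which genes were placed in member bins. Each window runs from 250 bases before to 50 bases after the outermost annotated start in the NCBIM37 (mm9) genome, 5′ to 3′ on the strand of the gene, with CpG dinucleotides in capitals. Pdgfra and Fgfr1 are growth factor receptors, Col6a1 and Col6a2 are collagen VI chains, Timp3 is a matrix-bound inhibitor of metalloproteinases, and Dock2 is an exchange factor for Rac in blood cells.
Pdgfra, chr5:75548066-75548365, plus strand: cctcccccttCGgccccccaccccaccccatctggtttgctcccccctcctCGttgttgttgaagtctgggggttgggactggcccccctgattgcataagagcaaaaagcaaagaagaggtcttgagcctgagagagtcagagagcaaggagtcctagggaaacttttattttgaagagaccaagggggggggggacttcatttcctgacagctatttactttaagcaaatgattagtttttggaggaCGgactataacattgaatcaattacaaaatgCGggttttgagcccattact
Fgfr1, chr8:26623876-26624175, plus strand: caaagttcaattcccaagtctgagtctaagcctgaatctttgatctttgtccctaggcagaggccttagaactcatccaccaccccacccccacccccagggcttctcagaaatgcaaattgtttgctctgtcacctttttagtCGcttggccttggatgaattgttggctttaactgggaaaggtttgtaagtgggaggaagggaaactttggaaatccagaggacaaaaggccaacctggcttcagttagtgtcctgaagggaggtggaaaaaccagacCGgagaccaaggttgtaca
Col6a1, chr10:76188864-76189163, minus strand: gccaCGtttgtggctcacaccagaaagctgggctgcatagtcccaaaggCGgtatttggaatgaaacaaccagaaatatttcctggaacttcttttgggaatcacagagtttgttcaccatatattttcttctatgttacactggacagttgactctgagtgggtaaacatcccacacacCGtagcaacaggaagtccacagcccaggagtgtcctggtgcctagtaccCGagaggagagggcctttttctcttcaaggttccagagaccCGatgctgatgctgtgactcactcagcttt
Col6a2, chr10:76086326-76086625, minus strand: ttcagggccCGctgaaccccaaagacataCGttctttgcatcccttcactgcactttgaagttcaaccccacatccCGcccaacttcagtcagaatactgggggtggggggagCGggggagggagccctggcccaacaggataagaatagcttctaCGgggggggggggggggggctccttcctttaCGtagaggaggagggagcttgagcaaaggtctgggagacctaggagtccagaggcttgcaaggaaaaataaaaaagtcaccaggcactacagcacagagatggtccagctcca
Timp3, chr10:85762867-85763166, plus strand: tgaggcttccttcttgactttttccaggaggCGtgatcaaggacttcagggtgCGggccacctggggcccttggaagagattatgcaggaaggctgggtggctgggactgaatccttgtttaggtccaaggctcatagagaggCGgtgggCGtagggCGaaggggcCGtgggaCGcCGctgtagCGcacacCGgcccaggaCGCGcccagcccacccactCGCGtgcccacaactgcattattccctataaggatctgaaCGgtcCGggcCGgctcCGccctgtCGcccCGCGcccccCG
Dock2, chr11:34597345-34597644, minus strand: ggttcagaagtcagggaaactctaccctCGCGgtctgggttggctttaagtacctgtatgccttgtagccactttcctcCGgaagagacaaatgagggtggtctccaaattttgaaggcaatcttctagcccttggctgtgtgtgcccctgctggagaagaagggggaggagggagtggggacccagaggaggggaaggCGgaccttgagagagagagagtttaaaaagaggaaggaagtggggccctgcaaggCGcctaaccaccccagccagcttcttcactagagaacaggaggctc
The windows differed widely in CpG content. That of *Pdgfra* held 4 CpG and 49.3% GC, and that of *Fgfr1* held 2 CpG and 48.3% GC. *Col6a1* had 5, *Col6a2* 6 and *Dock2* 5. *Timp3* had 22, more than 71.1% of all protein-coding promoters, whereas only 12.02% of promoters had fewer CpG than *Fgfr1*. Over the 22 matrix and growth factor genes that start in member bins, the count ran from 1 at *Tnc* to 47 at *Fgf18*, with a median of 12. A gene can have other starts, which were not examined.

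Members were found on all 19 autosomes. Their share of an autosome ran from 3.09% on chromosome 4 (Wilson 95% interval 2.72 to 3.50%) to 8.19% on chromosome 9 (7.52 to 8.90%), with a median of 5.64%. Chromosomes 13 and 7 followed chromosome 9, at 7.90% and 7.58%, and their intervals overlapped with it. Chromosome 4 lay below every other autosome, and chromosome 2 was the next lowest at 4.00% (3.61 to 4.43%). Their members lay in only 30 and 40 runs, so intervals over bins are too narrow to separate autosomes. The share combines the amount of sequence that was M in both B maps, which ran from 12.9% of chromosome 11 to 24.1% of chromosome 13, with the part of it that was E in MEFs, from 21.1% on chromosome 4 to 43.1% on chromosome 15.

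**Figure D1:**
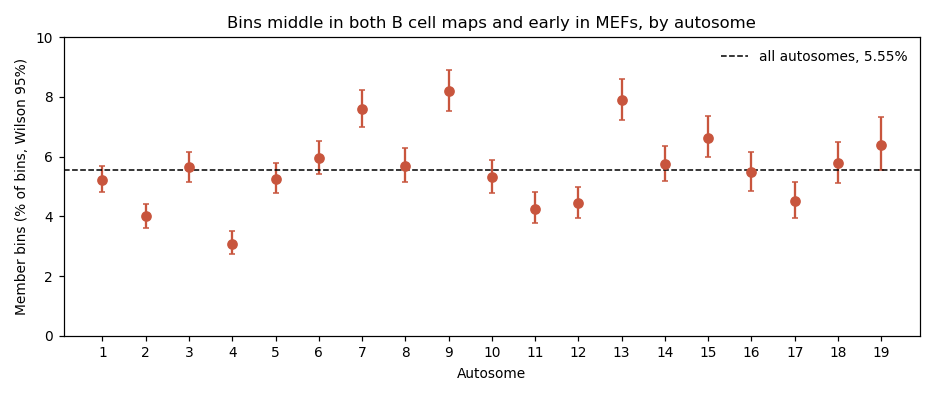
Share of autosomal 20 kb bins that were middle in both B cell maps and early in MEFs (y axis, percent of the bins of each autosome) on the 19 autosomes (x axis). Points are shares, bars are Wilson 95% intervals over bins, and the dashed line is the share over all autosomes, 5.55%. Chromosome 4 is lowest at 3.09% and chromosome 9 highest at 8.19%.

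Of the 20507 bins that were M in both B maps, 32.4% were E in MEFs (Wilson 95% interval 31.8 to 33.1%), 61.0% were M and 6.63% were L. Over all autosomal bins, 33.8% were E in MEFs, 37.1% were M and 29.1% were L. The E share of bins that were M in both B maps thus lay within 2 percentage points of the background, while their L share was well below it. Members made up 21.7% of the CH12 M bins, 17.4% of the primary B M bins and 16.4% of the MEF E bins. Among the 40478 MEF E bins they were the largest class after the 57.7% that were E in both B maps. The next class, with 12.2%, was E in primary B cells and M in CH12.

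The 601 runs had a median length of 160 kb (quartiles 80 and 300 kb). The runs that were M in all 3 maps had a median of 200 kb and those that were M in both B maps and L in MEFs a median of 140 kb. Of the member runs, 57 were a single bin and 155 reached 300 kb, the span over which the authors smoothed the RT values. Those 155 runs held 58.9% of the members. No protein-coding gene began in 209 runs, or 34.8%, and 103 runs overlapped none.

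The longest run covered 1640 kb on chromosome 5 (73980001 to 75620000), and 11 protein-coding genes began in it. They were *Lrrc66*, *Sgcb*, *Spata18*, *Usp46*, *Rasl11b*, *Scfd2*, *Fip1l1*, *Lnx1*, *Chic2*, *Gsx2* and *Pdgfra*. *Pdgfra* (75548316 to 75594229, plus strand) encodes the PDGF receptor alpha, a mesenchymal receptor tyrosine kinase, and its start lay 71.7 kb inside the upper edge of the run. At the lower edge CH12 became E at once and primary B cells 80 kb further out, while MEFs stayed E for another 1060 kb. At the upper edge MEFs became M, and CH12 and primary B cells became L 40 and 220 kb further out. The run therefore lay on a slope from early to later states in all 3 maps. The MEF slope was displaced towards the *Pdgfra* side, which follows from the member rule.

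The second run covered 1260 kb on chromosome 6 (117380001 to 118640000). It held the starts of 13 genes, *Gm7292*, *Zfp637*, *Zfp239*, *Hnrnpf*, *4933440N22Rik*, *Fxyd4*, *Rasgef1a*, *Csgalnact2*, *Ret*, *Bms1*, *Zfp248*, *Zfp9* and *Ankrd26*. *Ret* is the receptor tyrosine kinase for GDNF family ligands, best known from the developing nervous system and kidney. CH12 was E next to the lower edge and L next to the upper edge, and primary B cells became L 20 kb beyond the upper edge. MEFs stayed E for 460 kb below and 2600 kb above the run, so here a slope in CH12 faced an unbroken early domain in MEFs.

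The third run covered 1200 kb on chromosome 12 (71780001 to 72980000) with 9 gene starts, *Frmd6*, *Actr10*, *Psma3*, *Arid4a*, *Tomm20l*, *Timm9*, *2700049A03Rik*, *Dact1* and *Daam1*. *Dact1* and *Daam1* encode proteins of Wnt signalling, and *Psma3* encodes a subunit of the 20S proteasome core. The fourth run covered 1140 kb on chromosome 1 (93560001 to 94700000). In it began *Twist2*, a mesenchymal bHLH transcription factor, and *Hdac4*, a class IIa histone deacetylase. The others were *Ndufa10*, *Olfr1416*, *Olfr1415*, *Olfr1414*, *Olfr1413*, *Olfr1412*, *Olfr1411*, *Olfr1410*, *Olfr12*, *Myeov2* and *Otos*, of which 8 are olfactory receptor genes. This run was a dip in the B cells. CH12 was E next to both edges, primary B cells were E from 100 kb below and 400 kb above, and MEFs were E across the run and beyond both edges.

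The fifth run covered 1020 kb on chromosome 2 (93280001 to 94300000). Its 10 genes were *Cd82*, *Gm10803*, *Alx4*, *Ext2*, *Accs*, *Accsl*, *Alkbh3*, *Hsd17b12*, *Ttc17* and *Api5*. *Alx4* is a homeobox gene of limb and skull mesenchyme, and *Ext2* encodes a polymerase of heparan sulfate chains. Primary B cells were E next to the lower edge and MEFs M next to the upper edge, with L following 20 kb out in CH12 and 60 kb out in primary B cells. As in the *Pdgfra* run, the MEF early state reached further along the slope than that of the B cells, which follows from the member rule. The E state also covered unlike shares of the maps, 24.45% of bins in CH12, 29.89% in primary B cells and 33.78% in MEFs.

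**Figure D2:**
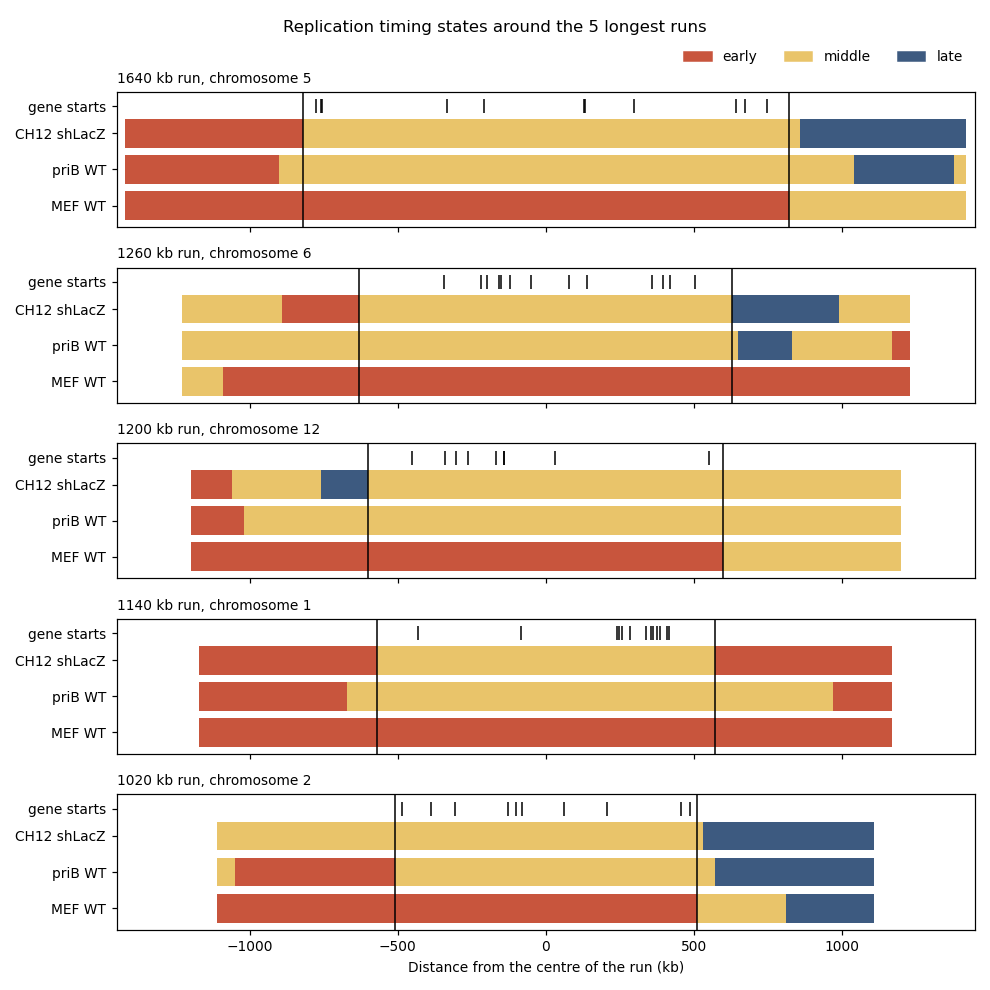
States of the 3 maps around the 5 longest runs, in 20 kb bins, against the distance from the centre of each run in kb (x axis). Rows are CH12 shLacZ, primary B WT and MEF WT, colours are early, middle and late, vertical lines are the run edges and ticks are starts of protein-coding genes. Between the lines both B cell rows are middle and the MEF row is early, and the 1140 kb run on chromosome 1 is flanked by early bins on both sides in CH12.

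The run with most gene starts, 17, covered 900 kb on chromosome 8 (26520001 to 27420000). These were *Fgfr1*, *Letm2*, *Whsc1l1*, *Ppapdc1b*, *Ddhd2*, *Gm17484*, *Bag4*, *Lsm1*, *Star*, *Ash2l*, *Kcnu1*, *Hgsnat*, *4930444A02Rik*, *Fnta*, *Hook3*, *Rnf170* and *Thap1*. *Fgfr1* (26624126 to 26686186, plus strand) encodes a receptor for fibroblast growth factors, *Star* carries cholesterol into mitochondria for steroid synthesis, and *Ash2l* encodes a subunit of H3K4 methyltransferase complexes. The longest run without a protein-coding gene covered 360 kb on chromosome 16 (93180001 to 93540000) at 45.2% GC. The gene with the greatest length in member bins was *Camta1*, with 31 bins or 620 kb. It is a transcription activator gene of 802 kb on chromosome 4 (150433633 to 151235985, minus strand). Its start lay outside the member bins, in a bin that was E in all 3 maps.

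The bins next to the runs show how members sit in the B cell program. Of 1200 run edges with a state on the outer side, 394 were edges where only MEFs changed, always from E to M. Only primary B cells changed at 388 edges, 368 times to E and 20 times to L. Only CH12 changed at 354 edges, 158 times to E and 196 times to L. Counting every edge where primary B cells left M, 93.7% entered E (403 of 430 edges, Wilson 95% interval 91.0 to 95.6%). For CH12 the value was 46.9% (191 of 407, 42.1 to 51.8%). At the edges of runs that were M in all 3 maps the values were 79.96% for primary B cells and 17.3% for CH12, and at those of runs L in MEFs 50.0% and 9.15%. In both B maps leaving M towards E was commonest at runs that were E in MEFs and rarest at runs that were L there. These edges were read from the maps that the rule used, so this order is a description and was not tested. The size depended on the setting, since 100 kb outside the runs the values were 89.2% for primary B cells and 52.6% for CH12.

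**Figure D3:**
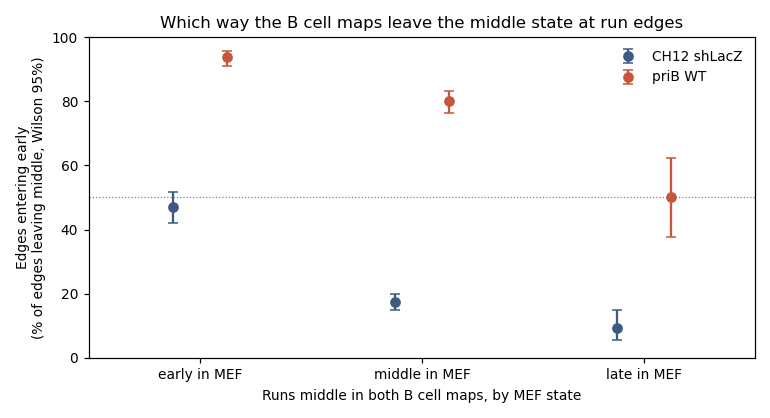
Share of run edges at which a B cell map entered the early state, among edges where it left the middle state (y axis, percent), for runs that were middle in both B maps and early, middle or late in MEFs (x axis). Points are shares for CH12 shLacZ and primary B WT, bars are Wilson 95% intervals over edges, and the dotted line marks 50%. The points fall from 93.7% to 50.0% in primary B cells and from 46.9% to 9.15% in CH12.

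The 2 sides of each run were then read over the 3 maps together, so an earlier and a later state could come from different maps. Of 599 runs with states on both sides, 441, or 73.6%, had an earlier state on one side and a later state on the other. Another 92 runs, 15.4%, met a later state on both sides, and 55, 9.18%, an earlier state on both sides. For runs M in all 3 maps the shares were 67.5, 12.1 and 14.1%, and for runs L in MEFs 72.2, 15.2 and 6.62%. By the rule, MEFs could only turn later at member runs. They could turn either way at runs M in all 3 maps and only earlier at runs L in MEFs. Differences between these shares are therefore not read as a result. The commonest single arrangement, in 177 runs or 29.5%, had primary B cells becoming E on one side and MEFs becoming M on the other.

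The M domains that held the members were read from the same maps that chose them, so their kinds are a description and were not tested. In primary B cells, 38.1% of members lay in M domains between 2 E domains, against 25.4% of all M bins, and 12.02% lay between 2 L domains, against 23.0%. In CH12 the values were 18.5% against 16.2% between E domains and 26.4% against 32.7% between L domains. Domains between E and L held 47.5% of members in primary B cells, close to the 48.96% of all M bins. In CH12 they held 54.0%, against 49.74% of all M bins. The median distance from a member to the nearest E bin was 240 kb in primary B cells and 400 kb in CH12. Bins that were M in all 3 maps lay nearly as close, at 300 and 500 kb, and for bins that were L in MEFs the distances were 740 and 1240 kb.

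On the MEF side, members lay in 393 of 567 autosomal E domains. Of these 393 domains, 253 also held bins that were E in all 3 maps, and they contained 63.9% of the members. Another 67 MEF E domains held no bin that was E in either B map. Their median length was 440 kb, against 1200 kb for all domains with a member and 960 kb for all autosomal MEF E domains. A short domain has fewer bins that could be E in a B map, so this length is not read as a result. The 67 domains contained 1146 members, or 17.2%.

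GC content was not used by the rule. Members had a median GC content of 44.0% (quartiles 41.9 and 46.2%), bins M in all 3 maps 42.2%, and bins M in both B maps but L in MEFs 39.6%. Members were higher than bins M in all 3 maps on 19 of 19 autosomes, by 1.77 ± 0.778 percentage points (SD, n = 19 autosomes). They were higher than bins L in MEFs on 18 of 18 autosomes that held any, by 4.44 ± 0.969 points (SD, n = 18 autosomes). Bins E in all 3 maps had 46.2%, and members were lower on 18 of 19 autosomes. CpG dinucleotides followed the same order, with a median observed over expected ratio of 0.204 in members, 0.183 in bins M in all 3 maps, 0.152 in bins L in MEFs and 0.220 in bins E in all 3 maps. Members were thus between the early and the middle sequence of the genome.

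When all autosomal bins were divided into 5 equal groups by GC content, the share of bins M in both B maps that were E in MEFs was 13.2% in the lowest group (Wilson 95% interval 11.4 to 15.1%) and 49.02% in the highest (47.5 to 50.5%). Over all autosomal bins the same shares were 3.83% and 76.6%. GC-poor sequence that was M in B cells was therefore E in MEFs more often than GC-poor sequence at large, and GC-rich sequence less often. The share that was L in MEFs fell from 24.3% to 0.671% between the same groups.

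**Figure D4:**
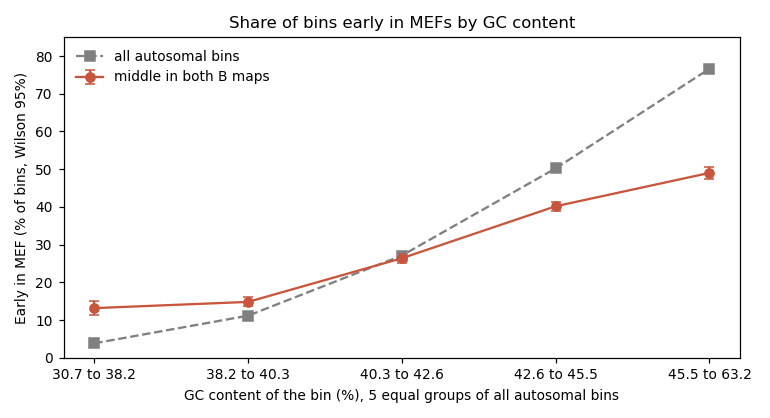
Share of bins that were early in MEFs (y axis, percent) in 5 equal groups of autosomal bins by GC content (x axis, percent). Circles are bins middle in both B maps with Wilson 95% intervals over bins, and squares are all autosomal bins. Circles rise from 13.2% to 49.02% and squares from 3.83% to 76.6%, crossing near the group with middle GC content.

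Protein-coding genes began in member bins 1267 times, which was 5.95% of the 21281 autosomal genes, close to the 5.55% of bins. Of the 3696 genes that began in bins M in both B maps, 34.3% began in members. There were 9.53 gene starts per Mb in members, 8.83 per Mb in bins M in all 3 maps, 8.13 per Mb in bins L in MEFs and 20.9 per Mb in bins E in all 3 maps. The difference from bins M in all 3 maps was within the spread between autosomes, 0.835 ± 2.74 per Mb (SD, n = 19 autosomes), with members higher on 13. Its direction turned without bins within 100 kb of a domain boundary and in the 3 lower GC groups, so no order of density is drawn. Members were less gene-dense than bins E in all 3 maps on 19 of 19 autosomes.

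Genes that began in members were long when the autosomes were pooled. Their median length was 25.3 kb, against 15.7 kb in bins M in all 3 maps, 15.3 kb in bins E in all 3 maps and 15.6 kb over all autosomal genes. Genes over 100 kb were 16.3% of those starting in members and 10.7% of all. The median was longer than that of bins M in all 3 maps on 13 of 19 autosomes and than that of bins E in all 3 maps on 14. Both differences, 7.73 ± 13.2 kb and 9.93 ± 11.1 kb (SD, n = 19 autosomes), were smaller than their spread. Protein-coding gene bodies covered 48.9% of the known bases of members, 42.6% in bins M in all 3 maps and 59.95% in bins E in all 3 maps. Members were higher than bins M in all 3 maps on 16 of 19 autosomes, by 6.55 ± 8.69 percentage points (SD, n = 19 autosomes). The gap was widest in the lowest GC group, at 85.1% against 61.0%, but that group held only 165 of the members. In the other groups, from low to high GC, it was 53.7 against 42.4%, 45.9 against 37.3%, 43.4 against 39.6% and 53.2 against 50.0%.

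Promoters of genes in members were rich in CpG. The median was 15 CpG per 300 base window, against 8 for genes starting in bins M in all 3 maps, 3 in bins L in MEFs, 17 in bins E in all 3 maps and 12 over all genes. Members had the higher median on 17 of 19 autosomes against bins M in all 3 maps, by 5.0 ± 4.10 CpG (SD, n = 19 autosomes). Windows without a CpG were 1.58% in members and 5.84% in bins M in all 3 maps, and 95.1% of all promoters held at least 1.

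Lists of genes were then placed by their starts. Of 236 genes in 4 fibroblast lists, 39 began in member bins, or 16.5%, against 5.95% of all autosomal protein-coding genes. These 39 starts fell in 37 runs. Fibroblast list genes in MEF E bins were not particular to members. *Col1a2*, *Fn1* and *Lox* began in bins L in CH12 and M in primary B cells, a class of 2.01% of autosomal bins. *Col3a1*, *Col5a2* and *Postn* began in bins L in both B maps, a class of 0.983%. Both classes were E in MEFs. The lists were 20.8% for matrix genes (11 of 53), 16.4% for growth factors and their receptors (11 of 67), 14.8% for mesenchymal transcription factors (8 of 54) and 14.5% for adhesion and contractile genes (9 of 62). Of the 50 fibroblast genes that were M in both B maps at their starts, these 39 were E and the others M in MEFs. Among genes at least 100 kb from any domain boundary, 17 of 144 fibroblast genes were in members, or 11.8%, against 3.74% of all. Placed by the middle of the body, the values were 14.4% and 5.86%.

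Matrix genes in members were *Col6a1*, *Col6a2*, *Col6a3*, *Col8a1*, *Fbn1*, *Fbln5*, *Lama4*, *Thbs1*, *Thbs2*, *Tnc* and *Timp3*. The 3 collagen VI chains on the list, which form beaded microfibrils, lay in a pair of runs. A further chain gene outside the list, *Col6a5*, lay in a run of 120 kb on chromosome 9 and is named after its values were seen. *Col6a1* (76171537 to 76188913) and *Col6a2* (76058507 to 76086375) shared a run of 680 kb on chromosome 10 with primary B cells E on both sides. *Col6a3* (92663435 to 92740529) lay in a run of 620 kb on chromosome 1. *Fbn1*, the fibrillin of elastic fibres, began in a run of only 80 kb on chromosome 2 that held 3 of the 11 bins of its body. *Thbs2*, a matricellular glycoprotein, began in a run of 520 kb on chromosome 17, and *Timp3* in a run of 660 kb on chromosome 10, 217 kb from its nearer edge. The start of *Tnc*, a matrix protein of remodelling tissue, lay 1.76 kb inside a run and 1 of its 4 bins was a member, so its placement depends on the exact boundary. No matrix gene began in a bin that was E in both B maps and M in MEFs. That class held only 3.675% of all genes, and no growth factor or adhesion list gene began in it either.

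Growth factor genes in members fell into receptors and ligands. The receptors were *Pdgfra*, *Fgfr1*, *Fgfr2*, *Igf1r*, *Met* and *Ddr2*. *Ddr2*, a receptor for fibrillar collagen, lay whole in a run of 580 kb on chromosome 1 (171902439 to 172040632), all 8 of its bins being members. *Met*, the receptor for hepatocyte growth factor, had 2 of 7 bins in members on chromosome 6, and *Igf1r*, the receptor for IGF1, 5 of 15 on chromosome 7. The annotated *Fgfr2* entry spanned 3009 kb with 19 of 151 bins in members, so its start stands for little of it. The ligands were *Fgf7*, *Fgf18*, *Bmp6*, *Wnt2* and *Cxcl12*. *Fgf18* lay in a run of 600 kb on chromosome 11 and *Wnt2* in one of 360 kb on chromosome 6, both with all bins of the gene in members. The starts of *Fgf7* and *Cxcl12*, a keratinocyte growth factor and a stromal chemokine, lay 0.393 and 1.45 kb from a run edge.

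Transcription factors and coactivators in members were *Twist2*, *Alx4*, *Foxd1*, *Msx2*, *Osr2*, *Ebf2*, *Wwtr1* and *Mkl2*. *Foxd1*, a forkhead gene of kidney stroma, lay 304 kb inside a run of 620 kb on chromosome 13. *Wwtr1*, which encodes the coactivator TAZ, and *Mkl2*, a coactivator of SRF, lay whole in runs of 240 kb on chromosome 3 and 420 kb on chromosome 16. *Ebf2*, a factor of brown fat precursors, began in members but only 2 of its 11 bins were members.

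Adhesion and contractile genes in members were *Tln2*, *Cav1*, *Itga9*, *Itgav*, *Cald1*, *Rock1*, *Synpo2*, *Fermt2* and *Parva*. At least 100 kb from any domain boundary were 7 of their 9 starts, against 3 of 11 for the matrix genes. *Tln2*, a talin that links integrins to actin, had all 18 bins in members and lay 332 kb inside a run of 700 kb on chromosome 9. *Itga9*, an integrin alpha chain, had all 16 bins in members on the same chromosome. *Itgav*, the alpha chain of vitronectin receptors, lay whole in a run of 260 kb on chromosome 2. *Fermt2*, a kindlin, and *Parva*, a parvin, both belong to the integrin adhesion complex. *Cav1*, the main protein of caveolae, lay in the same run of 200 kb on chromosome 6 as the start of *Met*.

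**Figure D5:**
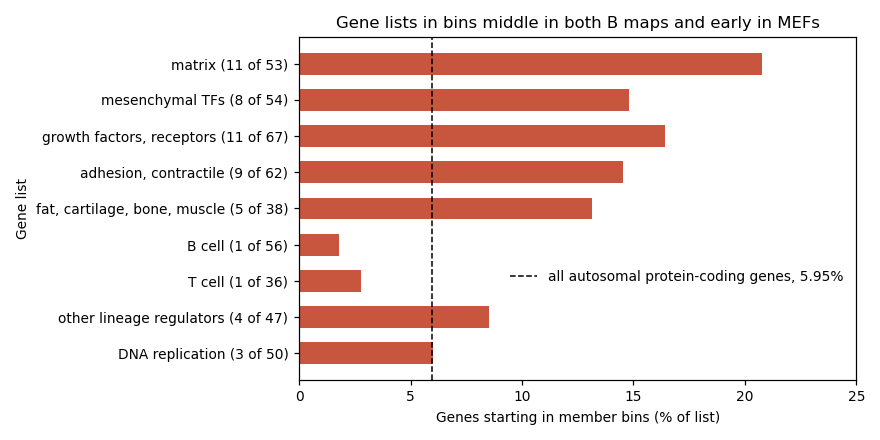
Share of each gene list that started in member bins (x axis, percent of the autosomal genes of the list) for 9 lists (y axis, with the counts). Bars are shares and the dashed line is the share over all autosomal protein-coding genes, 5.95%. The 4 fibroblast lists lie between 14.5 and 20.8%, and the B cell list at 1.79%.

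Genes of fat, cartilage, bone and muscle fates were in members for 5 of 38, or 13.2%. They were *Pparg* and *Cebpa*, both regulators of fat cells, *Acan*, the proteoglycan of cartilage, and *Ibsp* and *Dmp1*, a pair of bone matrix genes in 1 run of 260 kb on chromosome 5. The B cell list had 1 of 56, or 1.79%, which was *Dock2*. Its start lay in a run of 120 kb on chromosome 11, and 4 of the 24 bins of the gene were members. By the middle of its body it was not a member. In the mirror class, E in both B maps and M in MEFs, were 16 of the 56 B cell genes, or 28.6%, against 3.67% of all genes. The T cell list had 1 of 36 in members, *Bcl11b*, and regulators of other lineages 4 of 47, or 8.51%, which were *Neurod1*, *Grhl2*, *Eomes* and *Sall4*.

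The replication list had 3 of 50 genes in members, or 6.0%, close to the background of 5.95%. One was *Rif1* itself (chromosome 2, 51928357 to 51977903, plus strand), whose 3 bins were all members and whose start lay 208 kb inside a run of 420 kb. The others were *Gins4*, a subunit of the CMG helicase, in a run of 300 kb on chromosome 8, and *Prim2*, the large primase subunit, with 11 of 12 bins in members on chromosome 1. All 3 began at least 100 kb from any domain boundary.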

How the data were processed

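Mouse Repli-seq libraries of CH12 shLacZ and primary B WT cells were trimmed by the authors with Trim Galore 0.6.5, aligned to mm9 with BWA 0.7.17 and filtered for unique alignments with SAMtools 1.9. Replicates were merged, log2 ratios of early over late reads were taken in 20 kb windows and smoothed over 300 kb, and 3 states were called. The deposited state number of each domain was the only value used. It is unlabelled, and RT values and depth are lost in it, as are replicates. The methods describe this state calling for all conditions. How the MEF reads were aligned and binned is not given in the sources used here. Smoothing blurs edges by about its span.

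Groups came from the sample titles. Domains were laid on 20 kb bins of NCBIM37, whose chromosome lengths matched the domain ends, and genes came from GENCODE M1, with the longest protein-coding entry kept per symbol and placed by its outermost start. Of 471 list entries, 463 matched 1 autosomal gene after synonyms were used. Repeat content was not analysed here, since the genome copy marks no repeats. Members, gene lists and the rule for named genes (list genes in members, genes of the 5 longest runs and of the run with most starts, and the gene with most member bases) were chosen with earlier results of these data known. Run and edge functions were tested on simulated data, and 8 of 8 checks recovered the known value. Scripts ran under Python 3.11.15 with pandas 2.3.3, numpy 2.4.6 and matplotlib 3.10.9.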

Additional observations from a re-analysis of the deposited data

How the results depend on the processing

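No paired analysis was possible because each condition has a single map, made after its replicates had been pooled. Of 65 values under alternatives, 36 were classed as the same, 20 as moved and 9 as reversed. Some values classed as the same kept their direction but not their size. The difference in gene start density from bins M in all 3 maps fell from 0.693 to 0.166 per Mb in GC group 4. Without bins closer than 100 kb to a boundary of any map there remained 2577 members in 239 runs and 501 of the protein-coding genes, and runs of at least 300 kb kept 3913 members in 155 runs with a median of 440 kb. These smaller counts follow from fewer bins. For CH12, the share of edges entering E was 52.6% at 100 kb outside the runs, beside 89.2% for primary B cells, and 39.3% and 83.8% for runs of at least 300 kb. The cause was not tested. GC differences kept their direction under every alternative run. The density of gene starts in members minus that in bins M in all 3 maps reversed to -0.157 per Mb without boundary bins, and to -3.57, -0.762 and -0.752 in the 3 lower GC groups. Against bins L in MEFs it reversed to -0.357 without boundary bins, to -1.48 with genes of all types, and to -2.66, -2.75 and -2.27 in those groups. The cause was not tested. Without boundary bins, members held 3 matrix, 4 transcription factor, 3 growth factor and 2 mesenchymal fate genes, and 0 B cell, 0 T cell and 0 other lineage genes. Placed by the middle of the body, they held 7 growth factor, 0 B cell and 0 T cell genes. Depth and the RT value behind a state are unknown, so a bin near a state limit cannot be told from one far from it.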

Other observations

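Several clustered gene families began in member bins together, a pattern chosen after the values were seen and given without a test. Over all autosomal protein-coding genes the share in members was 5.95%. Large families lay below it, such as 18 of 341 *Slc*, 13 of 358 *Zfp* and 12 of 1106 *Olfr* genes. All 9 *Hoxd* genes, which pattern limbs and the posterior body axis, lay in 1 run of 220 kb on chromosome 2 (74480001 to 74700000). This run met later states on both sides, MEFs being M on both sides and CH12 L below it. All 7 alcohol dehydrogenase genes of the *Adh* stem lay in a run of 240 kb on chromosome 3 (137880001 to 138120000), with an early B cell map on each side. Of 51 keratin genes, 20 began in members, 12 of them in a run of 340 kb on chromosome 15 and 8 in a run of 120 kb on chromosome 11. The first held *Krt5* and *Krt1*, and the second *Krt15* and *Krt19*. All 5 annotated mast cell protease genes named *Mcpt* lay in a run of 160 kb on chromosome 14, and 7 of 13 *Apol* genes in a run of 540 kb on chromosome 15. Members of 1 cluster share a run and are not separate cases. *Cdkn2a* and *Cdkn2b*, inhibitors of cyclin-dependent kinases in senescence, shared a run of 360 kb on chromosome 4.

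Among the MEF E domains without a bin that was E in either B map, one of 840 kb on chromosome 13 (94420001 to 95260000) was a member in all 42 of its bins. It held *Bhmt2*, *Dmgdh*, *Arsb*, *Lhfpl2*, *Scamp1*, *Gm9776* and *Ap3b1*. *Bhmt2* and *Dmgdh* act in methionine and choline metabolism. A MEF E domain of 720 kb on chromosome 5 (151580001 to 152300000) was also made wholly of members, 36 bins, with *Kl*, *Stard13* and *D730045B01Rik*. These domains were chosen after their values were seen.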
